A study of Mus musculus with 5 samples.

Results

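The interferon-induced transmembrane (Ifitm) genes encode small membrane proteins, and the 4 members followed here are Ifitm1, Ifitm2, Ifitm3 and Ifitm6, 4 of 28692 genes in the count tables. They were found by their symbols, and their unique molecular identifier (UMI) counts were summed over each marker-defined immune class of each library. The family was picked because Ifitm1 and Ifitm2 had already been seen to be high in CD8 T cells of treated tumours in these same data. The levels and ratios below are therefore a description, with no test.

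IFITM proteins sit in the plasma membrane and in endosomal membranes, where they hinder the fusion of enveloped viruses with the cell. Interferons induce Ifitm1, Ifitm2 and Ifitm3 in many cell types through short promoter elements, the interferon-stimulated response element and the gamma-activated site. IFITM3 is the member best known for restricting influenza virus, while Ifitm6 is less studied and is best known from myeloid cells.

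The data were single-cell 5' RNA profiles of live CD45+ (haematopoietic) cells sorted from B16-F10 tumours, a transplanted mouse melanoma line. Each mouse had received 500000 B16-F10 cells under the skin, and tumours were resected on day 11. There were 5 libraries, 1 for each treatment: PBS, anti-PD1, IL15 superagonist, both of these given as a combination, and anti-PD1-IL15 protein fusion. The labels do not give the strain, age or sex of the mice, doses, or how many mice each library pools, and they place the treatments after resection; 1 of 2 labels of the combination names IL15 rather than the superagonist, and the title was followed.

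With 1 library per treatment no test between treatments could be made. Levels are given in counts per 1000000 UMIs of a class (CPM) with exact Poisson 95% intervals, and ratios with exact conditional binomial 95% intervals, all of which cover counting error only. A gene is called higher or lower where its ratio is at least 2-fold and its interval excludes 1, among genes with at least 20 UMIs in both libraries together and classes of at least 100 cells in each. The libraries held 6015 to 8747 barcodes (37468 in all), with a median of 4279 to 7851 UMIs per barcode, highest in the fusion library. Of these, 30369 were placed in a class, and 61 to 104 barcode sequences were shared by any pair of libraries. CD8 T cells numbered 882 under PBS, 1042 under anti-PD1, 1818 under the superagonist, 3048 under the combination and 6376 under the fusion. In these classes the defining genes were present: Cd3e in CD8 T cells lay between 869 and 1213 CPM, and Lyz2, a phagocyte gene, lay between 7.84 and 17.7 CPM there against 8810 to 15918 CPM in monocytes. Both genes are among those used for gating, so these levels were partly set by the gates.

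The 4 genes lie side by side on chromosome 7 of mm10, within 63088 bases (chr7:140954837-141017924) that hold 1 other annotated gene, Gm7514. Ifitm2 spans chr7:140954837-140955987 on the minus strand, Ifitm1 chr7:140967221-140969825 on the plus strand, Ifitm3 chr7:141009586-141010770 on the minus strand and Ifitm6 chr7:141015699-141017924 on the minus strand. The window from 250 bases before to 50 after the RefSeq start of each gene (GRCm38.p6, all 4 matched) was searched on both strands for 2 interferon-type patterns, because members that move together may share them. A pair of GAAA runs with any 2 bases between them, the core of a response element for type I interferon, occurred in 1131 of 32851 mouse promoter windows (3.44%), and TTCNNNGAA, the core of a gamma-activated site, in 2726 (8.30%). The matching stretches are shown 5' to 3' on the gene's own strand, with the matched letters in capitals:
Ifitm2, chr7:140955988-140956017: ccaccaacagGAAAAGGAAAttgctagaga
Ifitm3, chr7:141010715-141010743: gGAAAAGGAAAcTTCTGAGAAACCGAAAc
Ifitm6, chr7:141016884-141016912: ccatatgaacTTCCTTGAAacaagagctt

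In Ifitm2 the GAAA pair ends 37 bases before the start and lies in no annotated exon. In Ifitm3 2 such GAAA pairs and the TTCNNNGAA match, which overlaps the second of them, lie just after the start in the annotated 5' UTR. In Ifitm6 the TTCNNNGAA match ends 2 bases before the RefSeq start, in a UTR exon of another of its 3 transcripts. Neither pattern was found in the Ifitm1 window, which was drawn around 1 of its 3 annotated transcript starts. A match is a match of letters and says nothing of binding in these cells, nor of which signal would act through it.

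How well reads tell the members apart bears on every value below. Of the 50-base stretches in Ifitm6 transcripts none of 854 occurred in a transcript of another gene, and of those of Ifitm1 53 of 1056 did (5.02%). The shares were 10.0% for Ifitm3 (63 of 629) and 48.5% for Ifitm2 (294 of 606), of which 20 were shared with other members and most of the rest with processed pseudogenes or the overlapping gene Gm45717. Ifitm2 levels are therefore the least certain, with the authors' handling of such reads not given in the sources used here.

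In CD8 T cells Ifitm1, Ifitm2 and Ifitm3 were near the bottom of the range under PBS and higher under all 4 treatments, most of all under the fusion. Ifitm1 was measured at 3.75 CPM under PBS (2.35 to 5.67, 22 UMIs), 59.7 under anti-PD1 (54.5 to 65.3), 111 under the superagonist (105 to 117), 124 under the combination (119 to 128) and 2468 under the fusion (161403 UMIs). No pair of these intervals overlapped, but they treat UMIs as independent and leave out their clustering in few cells. The share of cells with Ifitm1, given below, was not higher under the combination than under the superagonist. Ifitm2 levels had the same order of libraries except that the superagonist library, at 86.3 CPM (80.9 to 92.0), lay above the combination at 74.5 (70.8 to 78.3). Its other levels were 4.60 under PBS (27 UMIs), 34.9 under anti-PD1 and 1211 under the fusion. Ifitm3, the antiviral member that myeloid cells hold at high levels, had the smallest spread, with 7.50 CPM under PBS, 29.2 under anti-PD1, 35.4 under the superagonist, 46.1 under the combination and 328 under the fusion. Ifitm6 stayed at background, with 3, 13, 2, 5 and 6 UMIs in the same order of libraries.

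**Figure D1:**
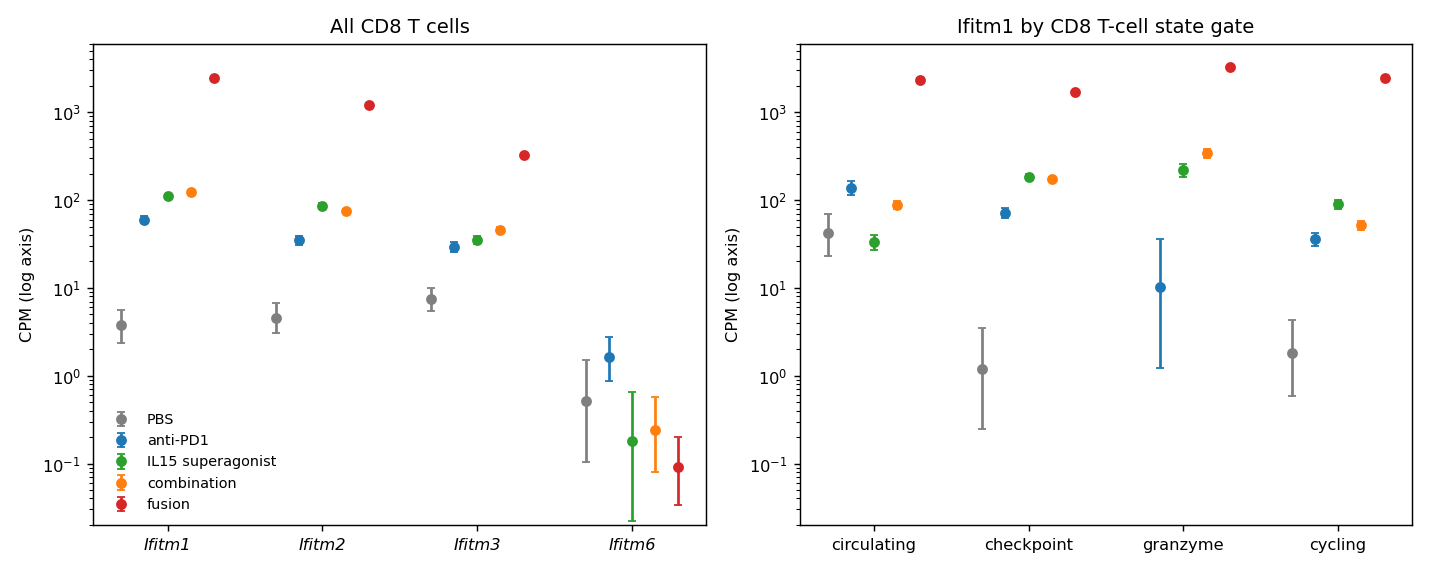
Levels in CD8 T cells by library (CPM, log axis, points with exact Poisson 95% intervals): the 4 members in all CD8 T cells on the left, and Ifitm1 within the state gates on the right, where groups under 20 cells are not drawn. Ifitm1 stands at 3.75 CPM under PBS and 2468 under the fusion, while Ifitm6 stays under 2 CPM in all 5 libraries.

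Against PBS, the CD8 T-cell ratio of Ifitm1 was 15.9 under anti-PD1 (10.4 to 25.7), 29.6 under the superagonist (19.4 to 47.4), 33.0 under the combination (21.7 to 52.7) and 658 under the fusion (435 to 1050). All 4 comparisons share the PBS library and its 22 UMIs. With each cell thinned to 2000 UMIs these ratios were 9.33, 17.2, 19.3 and 332, and as means over cells 9.87, 18.0, 19.5 and 341. All 3 members with enough UMIs were called higher in each, where the share of all genes called higher was 2.38% under anti-PD1, 6.44% under the superagonist, 5.04% under the combination and 6.38% under the fusion. Genes were ranked by size of ratio with 0.5 UMIs added to both counts. Ifitm1 ranked 10 of 10400 genes under anti-PD1, 24 of 10618 under the superagonist, 13 of 10992 under the combination and 1 of 11958 under the fusion. Ifitm2 rose 7.58-fold, 18.8-fold, 16.2-fold and 263-fold in the same order, and Ifitm3 3.89-fold, 4.72-fold, 6.15-fold and 43.8-fold.

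The 2 treatments that pair anti-PD1 with an IL15 agent differed more from each other than the combination differed from the superagonist alone. From combination to fusion the ratio was 19.97 for Ifitm1 (19.2 to 20.8), 16.3 for Ifitm2 (15.5 to 17.1) and 7.13 for Ifitm3 (6.68 to 7.62), all 3 called higher, with 5.84% of all genes so called. From superagonist to combination it was 1.11 for Ifitm1 (1.04 to 1.19), 0.863 for Ifitm2 (0.795 to 0.936) and 1.30 for Ifitm3 (1.16 to 1.47), and none was called, beside 0.583% of all genes called higher and 1.38% lower.

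The share of these UMIs that carried-over myeloid RNA could bring differed between libraries. The reference was the pooled RNA of monocytes, macrophages, neutrophils and dendritic cells other than plasmacytoid ones. Under PBS cDC2, a dendritic class, held 3479 of its 7788 Ifitm1 UMIs. Lyz2 is also one of the phagocyte genes by which T cells of mixed lineage were left out. The Lyz2 left in CD8 T cells, and so each share below, was therefore partly set by the gates. If all Lyz2 in CD8 T cells came from such pooled RNA, it would bring along 17.7% of the Ifitm1 UMIs, 42.4% of Ifitm2 and 56.8% of Ifitm3 under PBS. The amounts would be 0.36%, 3.01% and 11.8% under the superagonist, and 0.0073%, 0.0902% and 0.777% under the fusion. With that amount subtracted from each library, the superagonist ratio to PBS was 31.6 for Ifitm2 and 9.64 for Ifitm3. With the cells that carry markers of another lineage kept, which are left out above, the CD8 T-cell ratio to PBS of Ifitm1 was 5.84 under anti-PD1, 4.51 under the superagonist, 5.02 under the combination and 77.05 under the fusion, that of Ifitm2 was 1.24 under the superagonist and 1.28 under the combination, and that of Ifitm3 turned to 0.674 under the superagonist and 0.770 under the combination. With anti-PD1 in place of PBS as the base, the Ifitm1 ratio was 1.86 under the superagonist, 2.07 under the combination and 41.3 under the fusion.

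The rise took different forms. Under anti-PD1, the superagonist and the combination a small share of CD8 T cells held the UMIs. Under the fusion most cells held Ifitm1 and most held Ifitm2, but 69.9% of thinned cells held no Ifitm3. With each cell thinned to 2000 UMIs, so that depth is equal (24 shallower PBS cells and 1 superagonist cell left out), Ifitm1 was detected in 0.583% of CD8 T cells under PBS, 4.13% under anti-PD1, 7.37% under the superagonist, 6.63% under the combination and 54.5% under the fusion. Without thinning these shares were 1.25%, 5.47%, 9.68%, 9.19% and 63.4%. Under the fusion 19.3% of cells held 10 or more Ifitm1 UMIs per 2000, and 45.5% held none. Single cells reached 8 Ifitm1 UMIs under PBS, 65 under anti-PD1, 44 under the superagonist, 75 under the combination and 342 under the fusion.

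No class is sure to lack Ifitm1, so shares in other classes are set beside it. In the fusion library, thinned cells with an Ifitm1 UMI made up 6.25% of CD4 T cells (32 cells, median 3786 UMIs), 10.6% of gamma-delta T cells (47 cells, median 6815), 11.0% of NK cells (155 cells, median 3796) and 12.6% of macrophages (285 cells, median 7359), against 54.5% of CD8 T cells (median 9057). Of 199 thinned fusion monocytes 43 held an Ifitm1 UMI (median 6240 UMIs). Other T cells, at 1531 CPM in that library, are left out of this list. Under the superagonist no B cell of 36 and no gamma-delta T cell of 70 held one, against 7.37% of thinned CD8 T cells. As a level, the upper interval limit in those B cells was 24.6 CPM, against 111 CPM in CD8 T cells.

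**Figure D2:**
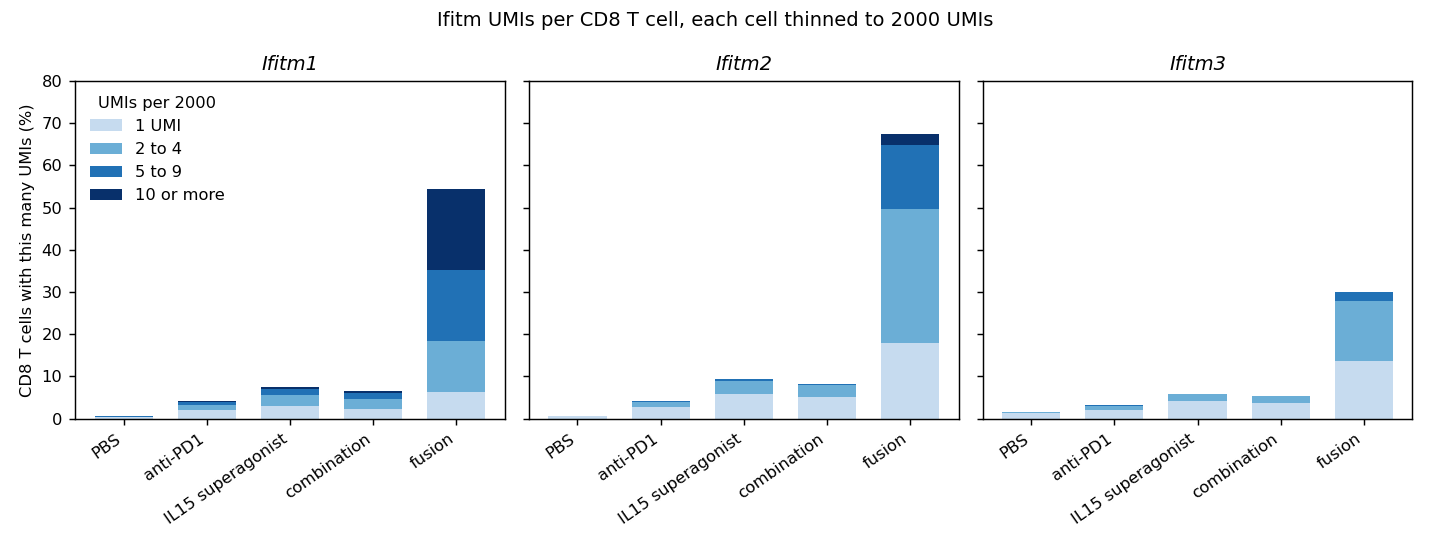
Share of CD8 T cells (percent, stacked bars) with 1, 2 to 4, 5 to 9, or 10 or more UMIs of Ifitm1, Ifitm2 and Ifitm3 per 2000 UMIs, by library. Under the fusion 54.5% of cells held Ifitm1, 67.3% held Ifitm2 and 69.9% held no Ifitm3. In the other 4 libraries no member was found in over 10% of cells.

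The members were found together in the same cells. Under the superagonist 45.5% of CD8 T cells with Ifitm1 also held Ifitm2 (36.9 to 54.3%, 134 cells), against 6.42% of those without (5.29 to 7.70%). Under the combination the shares were 42.1% and 5.83%, and under the fusion 78.9% and 53.5%. Ifitm3 was found in 36.5% of fusion CD8 T cells with Ifitm1 and in 22.5% of those without. Cells with an Ifitm1 UMI were deeper, with a median of 10161 UMIs against 7883 under the fusion and 4999 against 4566 under the superagonist, before thinning, and what this contributes was not tested.

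CD8 T cells were also divided by genes of cell state: circulating (genes such as S1pr1, Lef1, Ccr7 and Klf2), checkpoint (Pdcd1, Tox, Lag3, Havcr2 and Tigit), granzyme (Gzmc to Gzmf) and cycling (Mki67 and other mitosis genes). The fusion library held Ifitm1 at a high level in all 4, with 2362 CPM in circulating, 1726 in checkpoint, 3293 in granzyme and 2433 in cycling cells. The other libraries differed by state. Checkpoint cells had Ifitm1 at 1.19 CPM under PBS (3 UMIs), 71.6 under anti-PD1, 185 under the superagonist and 175 under the combination. Cycling cells stood at 1.83 CPM under PBS, 36.0 under anti-PD1, 89.3 under the superagonist and 51.7 under the combination. In circulating cells the order was different, with 41.9 CPM under PBS (14 UMIs in 77 cells), 138 under anti-PD1, 33.3 under the superagonist and 87.8 under the combination. In the superagonist library, where circulating cells make up 39.4% of CD8 T cells, their Ifitm1 level was thus below that of checkpoint cells. Granzyme-gated cells reached 219 CPM under the superagonist (67 cells) and 340 under the combination (104 cells).

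Within a library, Ifitm1 did not go with the interferon genes in one way. In the fusion library the CD8 T cells with an Ifitm1 UMI (3475) had lower levels of interferon-response genes than those without (2901), with a median log2 difference of -0.43 over 31 type I interferon-response genes against -0.02 over all 11806 genes. Ifi27l2a stood at 153 CPM with and 383 without, Ifit3 at 4.72 and 10.7, and Rsad2, an antiviral enzyme gene, at 5.10 and 10.4. Naive and memory genes went the same way, Tcf7 at 4.18 and 13.8 CPM and Ccr7 at 8.20 and 21.3, whereas the granzyme cluster was higher in cells with Ifitm1: Gzmd at 748 and 432 CPM and Gzmc at 1865 and 1148. Under the superagonist the median over type I interferon-response genes was 0.26 in cells with Ifitm1 (134) against those without (1683), beside 0.01 over all genes, and circulating genes had a median of -0.73. Over 12 myeloid transcripts the same split gave a median of 0.26, and their part in the result was not tested. Within cycling cells of that library (14 with Ifitm1, 192 without) the median was -0.25 over the type I genes and -0.08 over the circulating genes. These cells were split by the gene itself, so the values describe and test nothing.

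Ifitm1 in CD8 T cells also varied with the T-cell receptor beta V segment, which was read from the 5' transcripts. In the fusion library 14 segments had at least 50 assigned cells, and the share of cells with Ifitm1 ran from 43.5% for Trbv19 (717 cells, 39.8 to 47.2%) to 67.1% for Trbv23 (164 cells, 59.3 to 74.2%), so that no segment lacked it. Under the superagonist Trbv14 stood out, with Ifitm1 in 17 of 58 cells (29.3%, 18.1 to 42.7%), where the other 10 segments lay between 1.69% and 9.33%. Under the combination Trbv16 was highest at 17.9% of 179 cells (12.6 to 24.3%), with the other 13 segments between 2.47% and 10.8%. How many clones these cells come from was not tested.

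The interferon-response genes gave the setting for the 3 members in CD8 T cells. A list of 32 type I interferon-response genes was compared with PBS. Under anti-PD1 10 of 30 measured were called higher and none lower (median log2 0.58, against -0.06 over all genes), under the superagonist 10 of 31 and none (0.73 against -0.06), under the combination 4 and 1 of 31 (0.42 against -0.08), and under the fusion 6 and 1 of 31 (0.31 against -0.13). The shares of all genes called higher were 2.38%, 6.44%, 5.04% and 6.38% in that order, and of those called lower 2.76%, 8.02%, 6.83% and 14%. By ratio under the superagonist the first were Oasl2, a homologue of the 2'-5' oligoadenylate synthetases, at 6.70-fold, Irf7, a transcription factor of the interferon response, at 3.68-fold, Rtp4 at 3.44-fold and Usp18, which dampens interferon signalling, at 3.37-fold. Ifitm1 at 29.6-fold and Ifitm2 at 18.8-fold lay above each of them, and Ifitm3 at 4.72-fold lay below Oasl2. In the same comparison 4 of 12 measured myeloid transcripts were called higher in CD8 T cells, the macrophage genes C1qc at 6.73-fold, C1qa at 3.01-fold, C1qb at 2.47-fold and Cd68 at 2.04-fold, and Lyz2 was 1.85-fold and not called. Their part in the rise of the interferon genes was not tested.

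Under every treatment most genes of the type I list were not called higher. The fusion library had the members furthest above PBS, and only there were more interferon-gamma-response genes called lower than higher. Of the type I list the fusion library held Mx1 at 3.33-fold, Cmpk2 at 3.25-fold, Usp18 at 2.52-fold, Irf7 at 2.28-fold, Ly6e at 2.23-fold and Rtp4 at 2.02-fold as called higher, and Ifi27l2a as called lower at 0.298-fold. Isg15, a ubiquitin-like interferon-response protein, was 55.9 CPM under PBS and 102 under the fusion, and was not called. Among 22 interferon-gamma-response genes 4 were called higher under anti-PD1 (20 measured, median 0.40), 9 under the superagonist (20 measured, 0.69) and 7 under the combination (20 measured, 0.70). The shares of all genes so called were 2.38%, 6.44% and 5.04%. Under the fusion Cxcl10 alone was called higher and 4 of 21 were lower, Gbp5, Irgm2, Iigp1 and Cxcl9, with a median of -0.18. There 6.38% of all genes were called higher and 14% lower, with a median of -0.13. Under the superagonist the first of this list were Tgtp1 at 13.3-fold, Tgtp2 at 10.7-fold, Igtp at 3.05-fold and Gbp2 at 2.59-fold, all interferon-inducible GTPases. Tgtp2 moved from 3.41 CPM under PBS to 36.4 under the superagonist and was 6.18 under the fusion.

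**Figure D3:**
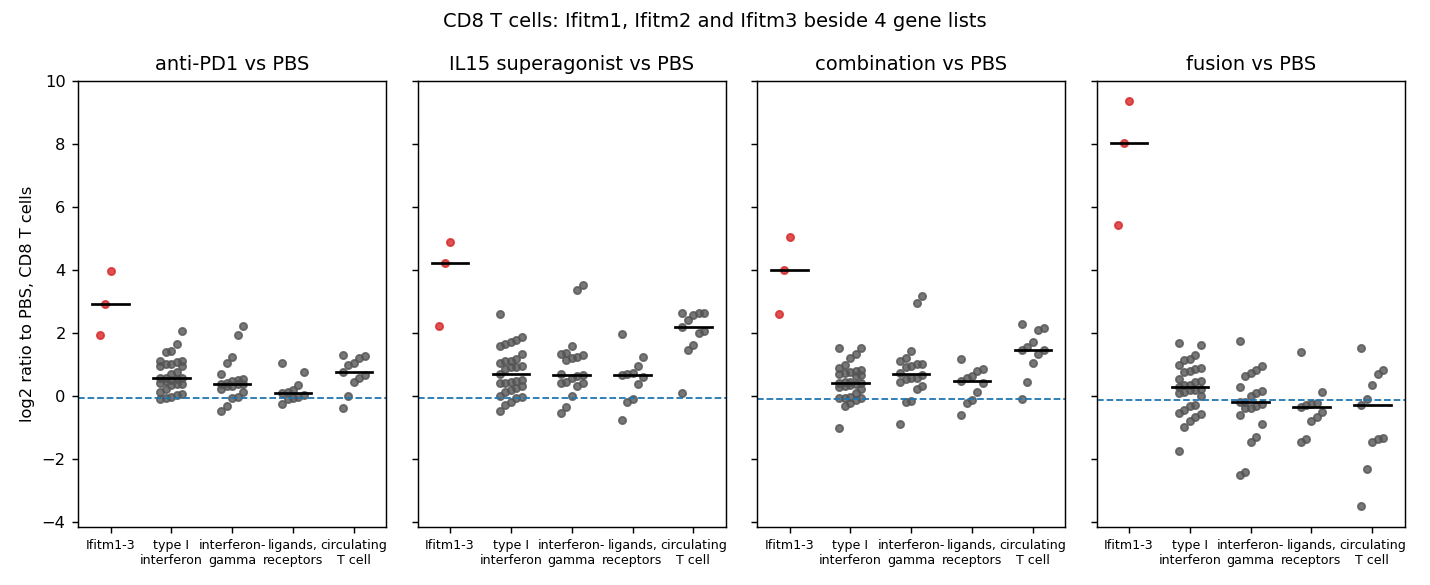
Log2 ratio to PBS in CD8 T cells of Ifitm1, Ifitm2 and Ifitm3 (red) beside 4 gene lists (grey points, one per gene; black line the median; blue dashed line the median over all genes), 1 panel per treatment. The members lie above the list medians in each panel, and under the fusion the interferon-gamma list has a median of -0.18, against -0.13 over all genes. Ratios of the lists and of all genes have 0.5 UMIs added to both counts, those of the members do not.

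Genes of interferon itself and its receptors formed a further list. Of 12 ligands, receptors and signal transducers 11 were measured, with a median log2 ratio of 0.67 under the superagonist and -0.33 under the fusion. Over all genes these medians were -0.06 and -0.13. Ifngr2, a chain of the interferon-gamma receptor, was 4.02-fold and Ifnar2, a chain of the type I receptor, 2.39-fold higher under the superagonist, and Ifnar2 was 2.64-fold higher under the fusion, where Jak2 was 0.370-fold and Tyk2 0.395-fold. Ifng, which encodes interferon gamma, had 104 CPM under PBS, 216 under anti-PD1, 174 under the superagonist, 140 under the combination and 87.0 under the fusion. Ifnb1 was at 0 UMIs in CD8 T cells of 4 libraries, and 0.0153 CPM under the fusion.

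Genes beside the cluster and relatives outside it were compared in the same way. Of 8 measured neighbours on chromosome 7, 2 were called higher under the fusion (median log2 0.89), beside 6.38% of all genes (median -0.13). These were Pkp3, a plakophilin, at 2.50-fold, and B4galnt4, a glycosyltransferase, at 18.0-fold from 0.341 CPM. B4galnt4 was 7.18-fold higher under the superagonist (1.80 to 62.3). Ifitm10, a family gene that lies outside the cluster on chromosome 7, was called higher in all 4 comparisons, beside 2.38%, 6.44%, 5.04% and 6.38% of all genes. It was at 8.01 CPM under PBS, 16.4 under anti-PD1, 32.0 under the superagonist, 39.4 under the combination and 25.9 under the fusion. Its levels under the superagonist and the combination were above that under the fusion, unlike those of Ifitm1 to Ifitm3. Ifitm5, next to the cluster, had 0 UMIs in CD8 T cells under PBS, 1 under the combination and 49 under the fusion, 15.4-fold above the combination (2.63 to 620). Ifitm7 on chromosome 16 had 2, 2 and 19 UMIs and was not called.

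Other lymphoid classes showed the rise with different sizes. In NK cells Ifitm1 was at 2.83 CPM under PBS (2 UMIs) and 2.37 under anti-PD1 (4 UMIs), then 63.5 under the superagonist, 165 under the combination and 224 under the fusion. The ratio to PBS, with 2 UMIs in the base, was 22.4 under the superagonist (6.13 to 186), 58.3 under the combination (16.1 to 483) and 79.1 under the fusion (21.6 to 658). Ifitm2 in NK cells stood at 4.25, 13.01, 88.6, 144 and 563 CPM in the order of the libraries, and Ifitm3 at 14.2, 20.7, 37.1, 49.7 and 194. All 3 members were called higher under the superagonist, the combination and the fusion, where 6.17%, 6.09% and 10.3% of all genes were so called. Under anti-PD1 neither Ifitm2 nor Ifitm3 was called (3.06-fold, 0.920 to 15.98, for Ifitm2), beside 2.67% of genes. With cells of mixed lineage kept, the NK ratio of Ifitm1 to PBS turned to 0.291 under the superagonist, 0.837 under the combination and 0.964 under the fusion. Ifitm2 was then at 0.605, 0.909 and 1.94 in the same order, and Ifitm3 at 0.264, 0.496 and 0.686. From superagonist to combination NK Ifitm1 was called higher at 2.60-fold (2.20 to 3.09), as were 0.485% of genes, and from combination to fusion Ifitm2 and Ifitm3 were each called higher at 3.91-fold, as were 3.35%. In the combination library Ifitm1 had the largest ratio to PBS of 8051 genes in NK cells, with 0.5 UMIs added to both counts.

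Carried-over CD8 T-cell RNA was estimated in the same way, through Cd8b1 in NK cells. These cells were gated to lack Cd3e, Cd3d and Trac UMIs, so the Cd8b1 left in them was partly set by the gate. It would account for 0.525% of the NK Ifitm1 UMIs under the superagonist and 12.6% under the fusion. Free myeloid RNA would bring 1.03% and 0.129% of them, respectively, while under PBS it would bring 95.3% of the 3 Ifitm2 UMIs.

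T cells that met no CD4, CD8, regulatory or gamma-delta gate (other T cells) also had their highest levels of Ifitm1, Ifitm2 and Ifitm3 under the fusion. This class still held Cd8a, at 156 CPM under PBS, 204 under anti-PD1, 78.2 under the superagonist, 132 under the combination and 260 under the fusion, against 635 in fusion CD8 T cells, and the part of CD8-expressing cells in its values was not tested. Ifitm1 was at 24.2 CPM under PBS, 9.61 under anti-PD1, 49.3 under the superagonist, 40.0 under the combination and 1531 under the fusion, and the fusion ratio to PBS was 63.2 (44.7 to 92.5), 18.3 for Ifitm2 and 8.84 for Ifitm3. All 3 were called higher, with 10.8% of all genes so called. Under anti-PD1 Ifitm1 was called lower at 0.397-fold (2.42% of genes), but 28 of the 32 PBS UMIs were in 1 cell, and without the highest cell of each library the ratio was 2.11. With cells of mixed lineage kept, the superagonist ratios to PBS turned to 0.351 for Ifitm1, 0.706 for Ifitm2 and 0.504 for Ifitm3, and the fusion ratios were 6.26, 2.23 and 0.466. Under the superagonist Ifitm1 was 2.04-fold, Ifitm2 3.17-fold and Ifitm3 2.86-fold higher (5.91% of genes), and under the combination Ifitm2 was 2.83-fold and Ifitm3 2.32-fold higher (4.64%). From combination to fusion the ratios were 38.3 for Ifitm1 (33.4 to 44.2), 6.47 for Ifitm2 and 3.81 for Ifitm3, all 3 called higher, with 6.22% of genes.

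In CD4 T cells, the helper lineage, Ifitm2 and Ifitm3 moved more evenly over cells than Ifitm1 did. Ifitm2 was at 88.7 CPM under PBS, 141 under anti-PD1, 513 under the superagonist, 537 under the combination and 1285 under the fusion, with 32 cells in the last. Combination against PBS gave 8.75 for Ifitm1, 6.06 for Ifitm2 (4.16 to 9.12) and 2.82 for Ifitm3 (1.93 to 4.23), all 3 called higher, where 4.47% of all genes were. Under anti-PD1 Ifitm1 was called higher at 12.0-fold and Ifitm3 at 2.55-fold, beside 3.76% of genes, but all 69 Ifitm1 UMIs came from 1 of 105 cells. In regulatory T cells 24 of the 25 PBS UMIs of Ifitm1 came from 1 cell, so that its calls as lower under anti-PD1 (0.240-fold, 3.36% of genes) and the combination (0.0839-fold, 3.60%) rest on that cell, and without the highest cell of each library the ratios were 1.996 and 1.05. Treg Ifitm2 lay at 60.3, 53.7, 199 and 79.8 CPM under PBS, anti-PD1, the superagonist and the combination.

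B cells and gamma-delta T cells were few in each library. In B cells Ifitm1 was at 157 CPM under PBS, with 56 of 57 UMIs in 1 cell, 12.3 under anti-PD1 and 0 under the superagonist and the combination. Gamma-delta T cells held 0 Ifitm1 UMIs under anti-PD1 and the superagonist, 2 under the combination and 263 CPM under the fusion (213 to 321), where 47 cells were counted.

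**Figure D4:**
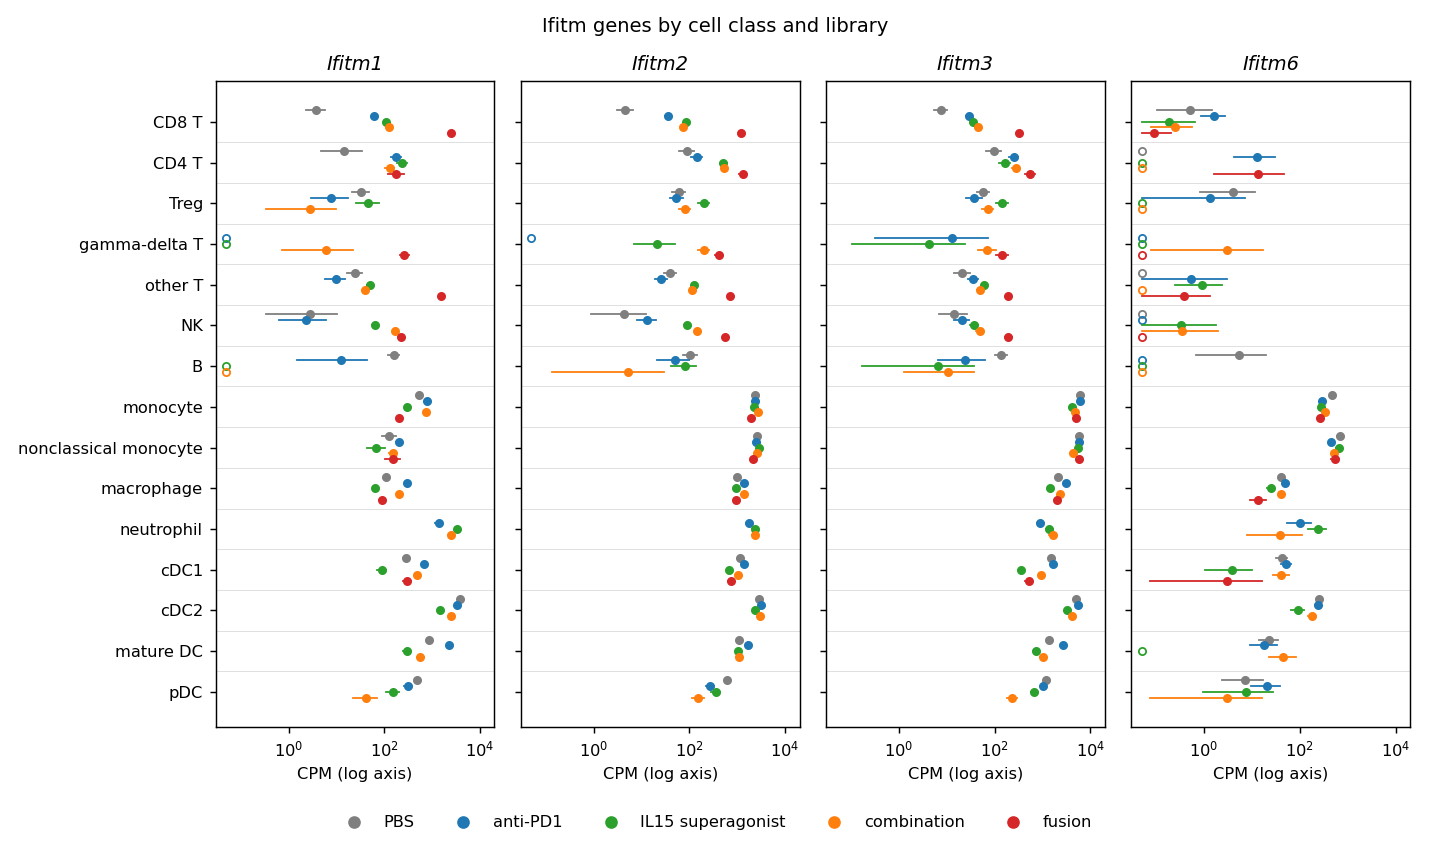
Levels of the 4 members (CPM, log axis, 1 panel per gene) in each immune class with at least 20 cells, by library, with exact Poisson 95% intervals; open circles at the left edge mark 0 UMIs. Ifitm3 stays within 4223 to 5992 CPM in monocytes, while CD8 T cells move from 7.50 to 328 CPM.

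Monocytes held Ifitm2 and Ifitm3 at high levels in every library. These cells, which give rise to tumour macrophages, had Ifitm3 at 5961 CPM under PBS, 5992 under anti-PD1, 4223 under the superagonist, 4871 under the combination and 4947 under the fusion, and Ifitm2 between 1888 and 2755. Neither was called in any comparison of monocytes with PBS. Between its lowest and highest library Ifitm3 differed 1.42-fold in monocytes, against 43.8-fold in CD8 T cells. It was found in 97.0% to 99.0% of thinned monocytes. Nonclassical monocytes, the Ace and Treml4 population, were similar, with Ifitm3 between 4381 and 5884 CPM.

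Ifitm6 was highest in the 2 monocyte classes under PBS, followed by cDC2, a dendritic class, at 252 CPM. It was 478 CPM in monocytes under PBS and between 267 and 341 under the treatments, and 459 to 681 CPM in nonclassical monocytes, with the highest value under PBS in both. Ratios to PBS in monocytes were 0.601 under anti-PD1, 0.581 under the superagonist, 0.712 under the combination and 0.559 under the fusion, none called; the shares of genes called lower were 2.63%, 4.04%, 4.48% and 8.44%. Across libraries it lay between 90.2 and 252 CPM in cDC2 and between 38.7 (3 UMIs) and 239 CPM in neutrophils. In macrophages it was 41.2 CPM under PBS and 13.6 under the fusion, 0.330-fold (0.219 to 0.481) and called lower, beside 5.84% of genes. Over all lymphoid classes with at least 20 cells it did not exceed 13.2 CPM.

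In monocytes and macrophages Ifitm1 varied more over the libraries than the other 3 members did. In monocytes it was at 540 CPM under PBS, 793 under anti-PD1, 294 under the superagonist, 740 under the combination and 204 under the fusion, so that both libraries with unfused anti-PD1 were highest. The fusion was called lower than PBS, at 0.379-fold (0.332 to 0.430; 8.44% of genes). From superagonist to combination the ratio was 2.52 (2.34 to 2.71), called higher, with 0.556% of all genes so called. Macrophages, defined by C1q genes, ran 108, 295, 63.5, 199 and 90.5 CPM in the same order. Anti-PD1 was called higher than PBS at 2.74-fold (2.53 to 2.97; 1.75% of genes), and the combination higher than the superagonist at 3.13-fold (2.80 to 3.51; 0.588%). From combination to fusion Ifitm1 was called lower in both, at 0.276-fold in monocytes (2.30% of genes) and 0.455-fold in macrophages (1.97%), the reverse of CD8 T cells. In the fusion library carried-over CD8 T-cell RNA would account for 22.5% of macrophage and 11.7% of monocyte Ifitm1 UMIs. Cells with T-cell markers were left out of both classes, so these shares were partly set by the gates.

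Interferon genes of monocytes are given beside these values for anti-PD1 and the combination against PBS. Those of macrophages and of the other comparisons are not given here. In monocytes the type I list had no gene called higher under anti-PD1 (median log2 0.28), where 2.59% of all genes were. Under the combination 14 of 32 were called lower (-0.94), beside 4.48% of all genes. Of 21 interferon-gamma genes, 9 were called higher under anti-PD1 (0.97) and 7 under the combination (0.71), where 2.59% and 2.11% of all genes were.

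Under PBS cDC2 and mature dendritic cells had the highest Ifitm1 levels of the 13 classes with at least 20 cells. In cDC2 (the Cd209a and Clec10a population) it was 3894 CPM under PBS, 3261 under anti-PD1, 1476 under the superagonist and 2474 under the combination. Mature dendritic cells, marked by Fscn1 and Ccl22, held 853, 2281, 304 and 565 CPM in that order, and plasmacytoid dendritic cells 489, 314, 150 and 41.4. cDC1, the Xcr1 population, had 280 CPM under PBS, 673 under anti-PD1, 88.1 under the superagonist, 492 under the combination and 296 under the fusion, and its anti-PD1 ratio of 2.40 (2.12 to 2.72) was called higher, as were 2.51% of genes. In all 4 dendritic classes Ifitm1 was lower under the superagonist than under PBS. Under the superagonist these classes held 67 cDC1, 46 cDC2, 35 mature and 34 plasmacytoid cells, too few for a call. Neutrophils held Ifitm1 at 1359 CPM under anti-PD1, 3346 under the superagonist and 2504 under the combination, in 46, 32 and 24 cells.

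Ordering the classes by Ifitm1 shows how far CD8 T cells moved. Under PBS cDC2 came first, then mature dendritic cells, then monocytes and plasmacytoid dendritic cells, whose intervals overlap, and CD8 T cells and NK cells came last with overlapping intervals. Under the fusion CD8 T cells came first at 2468 CPM (2456 to 2480), other T cells second at 1531, and cDC1, gamma-delta T cells and NK cells followed at 296, 263 and 224, with overlapping intervals between neighbours; cDC2, mature and plasmacytoid dendritic cells and neutrophils had fewer than 20 cells there. For Ifitm3 the myeloid classes kept the top under PBS, with monocytes and nonclassical monocytes overlapping at 5961 and 5690 CPM and CD8 T cells lowest at 7.50.

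Across 52 combinations of class and library with at least 50 cells, the members rose and fell together to different degrees. Pearson's r of log2(CPM + 10) was 0.95 for Ifitm2 with Ifitm3, 0.87 for Ifitm3 with Ifitm6, 0.79 for Ifitm2 with Ifitm6, 0.79 for Ifitm1 with Ifitm2, 0.71 for Ifitm1 with Ifitm3 and 0.50 for Ifitm1 with Ifitm6. The points share libraries, depth and the division into lymphoid and myeloid classes, so the values describe and carry no p. Among 9185 other genes, those most like Ifitm3 were the monocyte genes Ms4a6c (0.94), Gpr35, Pirb, Il13ra1 and Ptafr (0.92), and those most like Ifitm6 were Gpr141, Mefv, Nod2, Siglece and Mcemp1 (0.95 to 0.96). Ms4a6c is among the phagocyte genes used for gating, so its contrast between classes was partly set by the gates. Ifitm2 was most like Rsu1 (0.88), Lgals3, Anxa5, Sh3bgrl and Rnh1, of which Lgals3, encoding galectin 3, also rose in CD8 T cells from 101 CPM under PBS to 1066 under the fusion. For Ifitm1 no gene came closer than 0.71 (Cmtr1), followed by Gosr2, Tnfsf9, Psma1 and Avpi1, none of which had moved in CD8 T cells in proportion: Cmtr1 went from 4.26 to 14.1 CPM.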

How the data were processed

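The deposited files held raw UMI counts per gene and barcode for 5 libraries, made by the authors with Cell Ranger 2.1.1 on mm10, per the submitters' processing notes (annotation release, barcode filter, treatment of shared reads: not given in the sources used here). Barcodes with over 10% mitochondrial UMIs or fewer than 200 genes were removed. Classes were gated on marker genes (for CD8 T cells, at least 3 UMIs over 2 T-cell genes, 2 Cd8a or Cd8b1 UMIs, and no Cd4 or Trdc), and barcodes with markers of 2 lineages (2.34% to 5.62% per library) were left out as likely doublets; no doublet caller was run. Levels are given for classes of at least 20 cells. A count of 0 has a floor of 3 UMIs. Ranks by ratio and median log2 ratios were taken with 0.5 UMIs added to both counts. Members and lists were chosen with earlier results of these data known. Named genes: the 4 members; up to 4 called genes of each list with the largest ratio in CD8 T cells, superagonist against PBS; and the 5 genes most like each member, among genes with 1000 UMIs. Other list genes with values were chosen after their values were seen. V segments were assigned from at least 2 UMIs with 80% from 1 segment. The ratio calls were checked on simulated Poisson counts only. These had no clustering of UMIs in cells and no variation between libraries, so the check could not cover either. Tools were Python 3.11.15, numpy 2.4.6, scipy 1.17.1, pandas 2.3.3 and matplotlib 3.10.9. Alternatives were other doublet rules, thinning to 2000 UMIs, means over cells, reduced totals, subtraction of Lyz2-scaled myeloid RNA, anti-PD1 as the base, and, added after the data were seen, leaving out the highest cell of each library.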

Additional observations from a re-analysis of the deposited data

Results flagged for a closer look

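Ifitm1 moved in opposite directions in different classes of the same libraries; none of these differences was tested, since each treatment is 1 library. Under anti-PD1 against PBS it was 0.240-fold in regulatory T cells and 0.397-fold in other T cells, while it was 15.9-fold in CD8 T cells. Under the combination against PBS it was 0.0839-fold in regulatory T cells and 58.3-fold in NK cells. The regulatory and other T-cell values rest on single PBS cells that held 24 of 25 and 28 of 32 UMIs. Under the fusion against PBS it was 0.379-fold in monocytes and 658-fold in CD8 T cells. From combination to fusion it was 0.276-fold in monocytes and 0.455-fold in macrophages, against 38.3-fold in other T cells and 19.97-fold in CD8 T cells.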

How the results depend on the processing

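No paired analysis was possible because each treatment is 1 library. Of 85 values of the 9 main ratios recomputed under alternatives, 57 moved by less than their counting interval, 26 moved further and 2 reversed; 63 of the 68 values of the 7 called ratios stayed at least 2-fold in the same direction. Keeping cells of mixed lineage gave, against PBS in CD8 T cells, 5.84 (anti-PD1), 4.51 (superagonist), 5.02 (combination) and 77.05 (fusion) for Ifitm1, 1.24 for Ifitm2 and 0.674 (reversed) for Ifitm3 under the superagonist, and 0.291 (reversed) for NK Ifitm1. Thinning gave 9.33, 17.2, 19.3 and 332 for CD8 Ifitm1 and 1.03 for Ifitm3 in monocytes under anti-PD1; the mean over cells gave 9.87, 18.0, 19.5, 341 and 1.02, and the reduced total 0.961 for the last. For Ifitm2 and Ifitm3 under the superagonist, strict removal gave 30.0 and 6.82 and the Lyz2 subtraction 31.6 and 9.64. With anti-PD1 as the base, CD8 Ifitm1 was 1.86, 2.07 and 41.3, Ifitm2 2.47, Ifitm3 1.21 and monocyte Ifitm6 0.968. Of 968 values of 108 other ratios, 25 reversed. With mixed-lineage cells kept these were Ifitm1 in Treg (4.09 under anti-PD1, 1.42 under the combination), other T (1.36 under anti-PD1, 0.351 under the superagonist) and NK (0.837 under the combination, 0.964 under the fusion); Ifitm2 in other T (0.706, 0.838) and NK (0.605, 0.909) under the superagonist and the combination; and Ifitm3 in NK (0.264, 0.496, and 0.686 under the fusion), other T (0.504, 0.588, 0.466 under the fusion, 0.792 from combination to fusion) and CD8 T (0.770 under the combination). Strict removal reversed Ifitm1 in Treg (5.69 under anti-PD1, 1.11 under the combination) and other T (2.56 under anti-PD1), and the highest-cell alternative, chosen after seeing the data, in the same 3 (1.996, 1.05 and 2.11). With anti-PD1 as the base, CD4 Ifitm1 under the combination was 0.731. Where no value or construction above shows it, the cause was not tested. The PBS base of the Ifitm1 ratios is 22 UMIs in CD8 T cells and 2 in NK cells, which sets the width of their intervals.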
